A study of Homo sapiens with 6 samples.

Results

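The CDK inhibitor family comprised the 8 genes CDKN1A, CDKN1B, CDKN1C, CDKN2A, CDKN2B, CDKN2C, CDKN2D and CDKN3. They were taken by symbol from the deposited gene table, which listed 35474 genes. All 8 were in the table, and 6 of them were among the 20776 genes with enough reads to be tested; CDKN2A and CDKN2B were not. The data were poly(A) RNA-seq libraries of A549, a human lung adenocarcinoma line that carries a deletion of CDKN2A, collected 48 h after siRNA transfection. Cells of the siBAP18 group (n = 3) received siRNA against BAP18, a chromatin-associated reader of trimethylated H3K4 encoded by C17orf49, and cells of the siCtrl group (n = 3) received a nontargeting siRNA. Both groups share the CDKN2A deletion and the transfection itself. The labels call the samples of each group biological replicates of 1 cell line, so the p-values below measure the spread between these cultures. The study describes 3 siRNAs against BAP18, and which of them was used for these libraries is not given in the sources used here, so effects of 1 siRNA sequence and of BAP18 loss cannot be told apart.

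CDK inhibitors restrain the kinases that drive the cell cycle. Members of the CIP/KIP class (p21, p27 and p57) bind several cyclin-CDK complexes, whereas members of the INK4 class (p16, p15, p18 and p19) bind CDK4 and CDK6 and keep D-type cyclins from activating them. CDKN3 is not a binding inhibitor of either class but a phosphatase that removes the activating phosphate of CDK2, and its transcript is known to rise and fall with the cell cycle.

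The promoters of 3 members that differed between the groups are shown because these genes carry different sets of promoter motifs. The sequences are RefSeq windows of GRCh38.p14 upstream of the annotated start, limited to bases outside the exons of the gene table, written 5′ to 3′ on the gene's strand. Capitals mark exact matches, on either strand, to the GC box GGGCGG, the CCAAT box CCAAT or the cell cycle homology region TTTGAA (CHR, here read as its reverse complement in CDKN3).
CDKN1A (chr6:36678464-36678657, plus strand): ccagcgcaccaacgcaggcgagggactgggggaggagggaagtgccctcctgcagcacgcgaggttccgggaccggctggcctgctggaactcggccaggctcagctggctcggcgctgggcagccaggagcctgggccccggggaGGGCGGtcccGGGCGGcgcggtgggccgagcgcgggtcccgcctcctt
CDKN2D (chr19:10569060-10569229, minus strand): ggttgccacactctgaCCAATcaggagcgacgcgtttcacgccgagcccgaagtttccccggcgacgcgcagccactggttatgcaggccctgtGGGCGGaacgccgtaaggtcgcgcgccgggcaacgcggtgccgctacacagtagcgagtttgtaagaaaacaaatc
CDKN3 (chr14:54396757-54396848, plus strand): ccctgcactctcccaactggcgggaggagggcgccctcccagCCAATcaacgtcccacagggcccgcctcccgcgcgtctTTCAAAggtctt

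In the full 250 bases before the start, CDKN1A held 4 GC boxes and no CCAAT box or CHR match. CDKN3 held 2 CCAAT boxes, at -208 and -83, and 1 CHR match at -170, and no GC box. CDKN2D held 2 GC boxes and 1 CCAAT box, and CDKN1B held 1 GC box and 2 CCAAT boxes. Of the 3 windows of CDKN2C, which did not differ, 1 held 5 GC boxes, 1 held 1 GC box and 1 CCAAT box, and 1 held neither. CDKN2B held 2 GC boxes, and 1 of the 2 CDKN2A windows held 1. A link between motifs and the direction of change was not tested. Over all 35116 RefSeq windows of that length, 42.6% held a GC box, 32% a CCAAT box and 13.3% a CHR match, so each of these words alone is common. The 8-letter E2F words TTTCGCGC, TTTGGCGC and TTTCCCGC, found in 0.439%, 0.55% and 1.39% of windows, were in none of the members' windows. RefSeq windows were at hand for 7 of the 8 members, CDKN1C being the exception.

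The libraries held between 42094524 and 56548620 counts on genes. The target gene followed its labels: C17orf49 had 743, 751 and 705 counts in siCtrl and 120, 137 and 108 in siBAP18. Its log2 fold change was -2.65 (SE 0.111, edgeR adjusted p = 7.31e-16). Keratin and other epithelial markers were abundant in every library, with summed levels of 19900, 18700 and 20200 counts scaled to library depth (CPM) in siCtrl and 15800, 13800 and 17200 CPM in siBAP18, and KRT8 was the most abundant of the 4. CDH1, the E-cadherin gene and the 1 of these 4 with an absolute log2 fold change over 1, went from 63.9 ± 1.27 to 25.5 ± 0.202 CPM (SD, n = 3 each, log2 fold change -1.32, edgeR adjusted p = 3.81e-14). Of the alveolar type II markers only ABCA3 was well covered, and SFTPC, SFTPB and NKX2-1 were at or near 0 in every library. The 1 leukocyte marker in the table, LYZ, stayed between 2 and 16 counts per library. The 3 endothelial markers summed to between 0.856 and 1.15 CPM in every library, but PECAM1 was lower (log2 fold change -1.53, edgeR adjusted p = 0.00123) and CDH5 was higher (1.10, edgeR adjusted p = 0.0148), each at no more than 45 counts per library, and CDH5 lost its call without siCtrl replicate 3 (edgeR adjusted p = 0.0938). The 2 fibroblast collagens in the table summed to 12.1, 13.2 and 12 CPM in siCtrl and 10.2, 9.16 and 9.1 CPM in siBAP18, nearly all of it COL1A1. The part of these marker differences in the results below was not tested. Mitochondrial transcripts took 6.86% to 7.43% of counts in siCtrl and 5.27% to 6.14% in siBAP18. Leaving the mitochondrial genes out before scaling changed no member's call.

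At an adjusted p under 0.05, 4 of the 6 tested members differed between siBAP18 and siCtrl, against 49.6% of all genes tested. CDKN1A, CDKN1B and CDKN2D were higher, against 24.5% of all genes, and CDKN3 was lower, against 25.1%. Only CDKN1A also passed an absolute log2 fold change of 1, which 8.46% of all genes did (4.72% higher and 3.74% lower). On the TMM-scaled CPM the libraries of the groups did not overlap for the same 4 members, against 56.6% of all genes (27.6% higher and 29% lower). With so many genes changed, the number called is not in itself a result about the family, and the values of the single members follow. In bulk RNA, more cells holding a transcript and more transcript per cell cannot be told apart.

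CDKN1A, on chr6:36676460-36687339, encodes p21 and is a broad inhibitor of cyclin-CDK complexes. Its levels were 12.6, 12.7 and 13 RPKM (reads scaled to gene length and library depth) in siCtrl and 42.7, 40.6 and 44.9 RPKM in siBAP18. Every siBAP18 library was above every siCtrl library, and the siCtrl libraries lay within a narrow range of one another. The mean went from 12.8 ± 0.22 to 42.7 ± 2.16 RPKM (SD, n = 3 each). The fitted log2 fold change was 1.74 (SE 0.0729, 95% interval 1.59 to 1.89, edgeR adjusted p = 7.3e-16), or 3.35-fold.

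CDKN1B, on chr12:12715058-12722371, encodes p27, whose amount is set largely by protein degradation. Its levels were 22.7, 24.9 and 22 RPKM in siCtrl and 29.9, 32 and 27.2 RPKM in siBAP18. The groups did not overlap, but the distance between them was small beside that of CDKN1A. The log2 fold change was 0.35 (SE 0.0684, 95% interval 0.21 to 0.49, edgeR adjusted p = 0.000132), or 1.27-fold. The intron of CDKN1B holds the noncoding gene RP11-180M15.7, which shares 0 exonic bases with it. RP11-180M15.7 had between 11 and 31 counts per library (log2 fold change 0.56, edgeR adjusted p = 0.223). Its value ran from 0.371 to 0.837 with each library left out. With limma on log2(RPKM + 1) it was 0.236, and it passed in none of these fits.

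CDKN1C, on chr11:2883213-2885881, encodes p57, an imprinted inhibitor prominent in embryonic tissues. It was barely expressed, with 48, 28 and 34 counts in siCtrl and 24, 40 and 34 counts in siBAP18. The groups overlapped, and the lowest count was in siBAP18 replicate 1. The log2 fold change was -0.21 (SE 0.306, edgeR adjusted p = 0.605). Its 95% interval, from -0.84 to 0.42, was wide enough to hold a fall or a rise of moderate size, so a difference was not detectable at this depth.

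**Figure D1:**
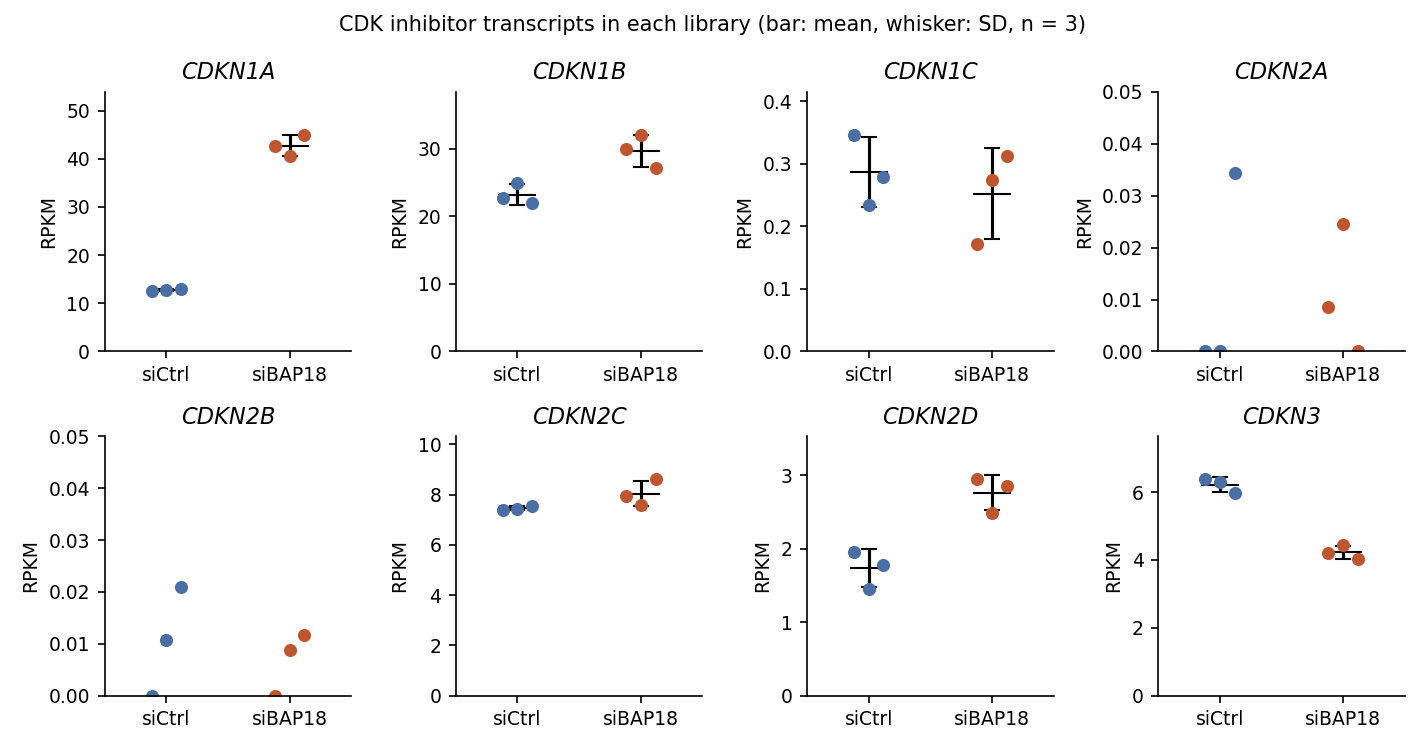
Level of each of the 8 members in RPKM (vertical axes from 0, each gene on its own scale) in the 3 siCtrl and 3 siBAP18 libraries, with points for libraries and, for the 6 tested members, a bar for the mean and a whisker for the SD. CDKN1A shows the widest gap between groups, from 12.8 to 42.7 RPKM, while CDKN2A and CDKN2B stay under 0.05 RPKM in every library.

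The plot of levels by library shows the contrast within the INK4 class between members that were read and members that were not. CDKN2C, on chr1:50960745-50974633, encodes p18. Its levels were 7.4, 7.41 and 7.55 RPKM in siCtrl and 7.93, 7.59 and 8.6 RPKM in siBAP18. The groups did not overlap in RPKM, yet the gap was narrow, and with TMM scaling the log2 fold change was 0.10 (SE 0.0776, 95% interval -0.06 to 0.26, edgeR adjusted p = 0.279). CDKN2D, on chr19:10566462-10569059, encodes p19, the INK4 protein whose abundance is known to vary through the cell cycle. It had 158, 100 and 126 counts in siCtrl and 239, 212 and 180 in siBAP18, or 1.96, 1.45 and 1.78 against 2.94, 2.49 and 2.85 RPKM. All siBAP18 libraries were above all siCtrl libraries. The log2 fold change was 0.66 (SE 0.15, 95% interval 0.36 to 0.97, edgeR adjusted p = 0.000615), or 1.58-fold.

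CDKN2A, on chr9:21967753-21995301, encodes p16 and, from another reading frame, ARF. It had 0, 0 and 7 counts in siCtrl and 2, 6 and 0 in siBAP18. CDKN2B, on chr9:22002903-22009363, encodes p15 and lies next to it. It had 0, 2 and 4 counts in siCtrl and 0, 2 and 2 in siBAP18. Both genes were at or near 0 in every library, CDKN2A being deleted in this line, and no fold change is given. If counts are independent reads, a count of 0 allows up to 3 counts, which is 0.0514 to 0.074 CPM depending on the library. Such limits cover counting error only. All counts of CDKN2B and CDKN1C were even, and whether both reads of a pair were counted is not given, so the limits may be wider.

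CDKN3, on chr14:54396849-54420218, was the 1 member that fell. Its levels were 6.37, 6.31 and 5.97 RPKM in siCtrl and 4.21, 4.43 and 4.04 RPKM in siBAP18. The groups did not overlap, and both were tight. The log2 fold change was -0.56 (SE 0.0909, 95% interval -0.75 to -0.38, edgeR adjusted p = 1.24e-05), which leaves 0.677 of the siCtrl level.

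**Figure D2:**
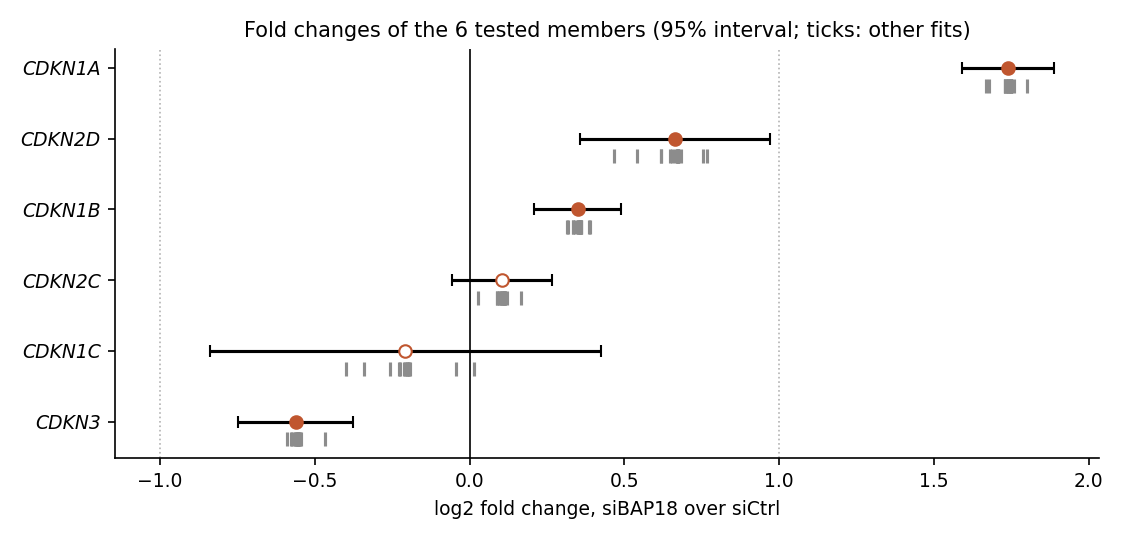
Log2 fold change of siBAP18 over siCtrl for the 6 tested members (horizontal axis), with 95% intervals; filled points passed an edgeR adjusted p under 0.05, grey ticks are the values under the other settings and with each library left out, and dotted lines mark a log2 fold change of 1 in either direction. CDKN1A at 1.74 is the only point beyond a dotted line, and the ticks of CDKN1C reach past 0.

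The genes around CDKN2A differed widely in their reads. The table lists 32 genes within 2000000 bases on either side, of which 13 had at least 10 counts in every library. MTAP, the methylthioadenosine phosphorylase gene 30.1 kb from CDKN2A, had 336, 203 and 279 counts in siCtrl and 281, 292 and 177 in siBAP18 (log2 fold change -0.19, edgeR adjusted p = 0.236). A noncoding gene on the same strand that starts inside MTAP and spans both CDKN2A and CDKN2B had nearly the same counts, 325, 191 and 269 in siCtrl and 266, 273 and 169 in siBAP18. It shares 460 exonic bases with MTAP, which are 3.15% of the exonic length of MTAP and 49.2% of its own. The counts of MTAP may therefore lie largely in that shared stretch, and reads of the 2 genes cannot be told apart. The noncoding gene shares 0 exonic bases with CDKN2A or CDKN2B. On the other side, 451.5 kb away, DMRTA1 had 72, 61 and 75 counts in siCtrl and 74, 65 and 20 in siBAP18 (log2 fold change -0.49, edgeR adjusted p = 0.129). The lowest of these was siBAP18 replicate 3. The antisense gene CDKN2B-AS1 was not analysed here.

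**Figure D3:**
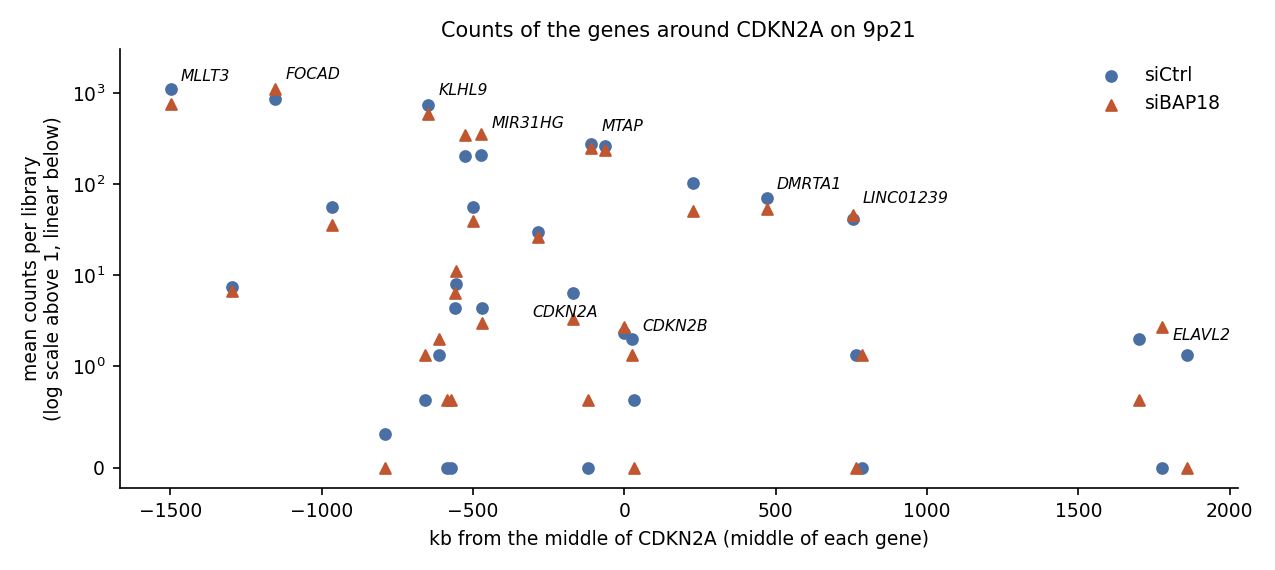
Mean counts per library (vertical axis, log scale above 1 and linear below) of the 32 genes within 2000000 bases of CDKN2A, against distance in kb from its middle, for siCtrl (circles) and siBAP18 (triangles). CDKN2A and CDKN2B average under 3 counts per library, while MTAP on one side and DMRTA1 on the other are well above 10. Counts are not scaled to gene length. Per length both are low, MTAP at 0.302 to 0.428 RPKM and DMRTA1 at 0.0853 to 0.286 RPKM. The counts of MTAP may lie largely in the stretch it shares with a noncoding gene.

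Levels can be set against each other per gene length. In siCtrl the order in RPKM was CDKN1B, CDKN1A, CDKN2C, CDKN3, CDKN2D, CDKN1C, and then CDKN2A and CDKN2B. In siBAP18 the order was the same except that CDKN1A stood first and CDKN1B second. In each group the libraries of neighbours in this order did not overlap, apart from CDKN2A and CDKN2B. The ratio of CDKN1A to CDKN1B in RPKM was 0.555, 0.509 and 0.59 in siCtrl and 1.43, 1.27 and 1.65 in siBAP18. All 3 siBAP18 libraries were thus on the other side of 1 (exact permutation p = 0.1, two-sided, the smallest that 3 against 3 libraries allow).

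The summed level of the 8 members was 51.3, 53 and 50.7 RPKM in siCtrl and 87.8, 87.4 and 87.9 RPKM in siBAP18. Most of the added RPKM was CDKN1A, whose share of the sum went from 24.7% ± 0.917 to 48.7% ± 2.35 (SD, n = 3 each). The CIP/KIP members summed to 36.2 ± 1.37 RPKM in siCtrl and 72.7 ± 0.265 RPKM in siBAP18, and the INK4 members to 9.21 ± 0.292 and 10.8 ± 0.702 RPKM. The share of CDKN3 went from 12% ± 0.321 to 4.82% ± 0.241. Set against the kinases, the CIP/KIP sum was 0.44 ± 0.028 of the summed RPKM of CDK1, CDK2, CDK4 and CDK6 in siCtrl and 0.814 ± 0.0325 in siBAP18. The INK4 sum over CDK4 and CDK6 was 0.147 ± 0.00265 and 0.136 ± 0.00361, a difference in the other direction. For each of these sums and ratios the libraries of the groups did not overlap, and the exact permutation p was 0.1, the smallest possible. They are ratios of transcripts and not of proteins.

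**Figure D4:**
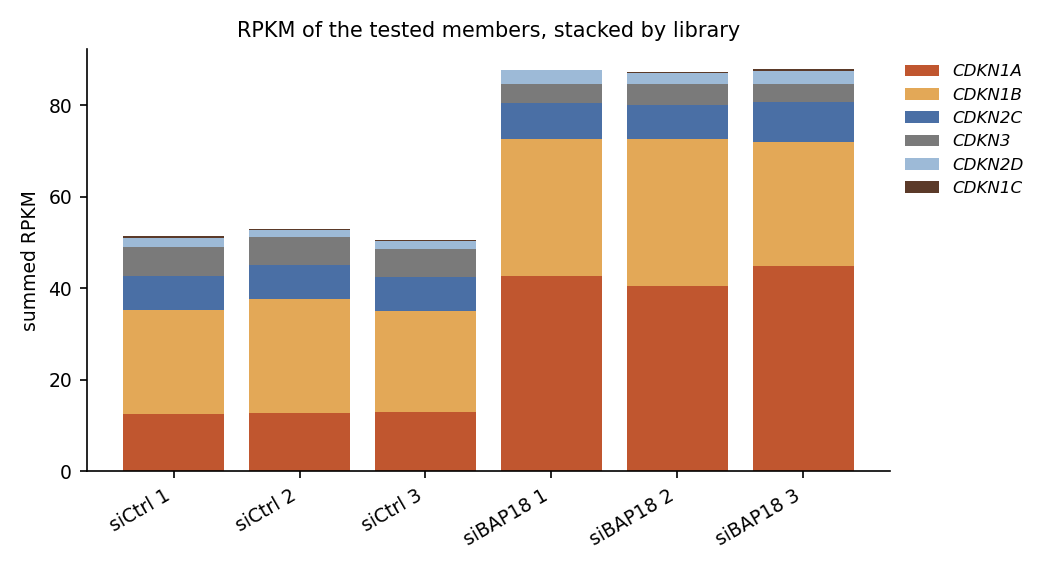
Summed RPKM (vertical axis, from 0) of the 6 tested members in each library, stacked by gene. Every siBAP18 stack is taller than every siCtrl stack, and the CDKN1A segment, 40.6 to 44.9 RPKM against 12.6 to 13 RPKM, accounts for most of the difference.

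Among the kinases and cyclins that the inhibitors bind, 8 of 11 tested genes were lower, 1 was higher and 2 did not pass. The shares over all genes tested were 25.1% lower and 24.5% higher. The median log2 fold change of the list was -0.67, against 0.00102 for all genes tested. The largest falls were in CCNE2 (cyclin E2, -1.32), CDK1 (-1.25) and CCND3 (cyclin D3, -1.03), and each passed both thresholds by edgeR, although CCND3 was at -0.97 without siBAP18 replicate 2. On the log2(RPKM + 1) scale of limma, which understates the change of low genes, CCND3 was at -0.94 and CCNE2 at -0.47. CDK2, the main kinase that p21 and p27 inhibit, had 11, 11.8 and 12 RPKM in siCtrl and 6.52, 6.85 and 5.67 RPKM in siBAP18 (log2 fold change -0.88). CCND1, the most abundant D-type cyclin here, had 78.6, 81.9 and 74.2 RPKM against 46.3, 49.7 and 39.8 RPKM (log2 fold change -0.80). The exception was CDK4, the kinase partner of D cyclins, with 61.7, 59.1 and 64.1 RPKM in siCtrl and 81.1, 73.9 and 80.9 RPKM in siBAP18 (log2 fold change 0.35). CDK6, the other INK4 target, did not pass (-0.07, edgeR adjusted p = 0.613), and CCNE1 fell only slightly (-0.25, edgeR adjusted p = 0.0157). CCNA1 and CCND2 had too few reads to be tested.

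Downstream of the kinases, 6 of 8 pocket protein and E2F genes were lower and none was higher, with a median log2 fold change of -0.46. The shares over all genes tested, for this and the other lists of this paragraph, were 24.5% higher and 25.1% lower. E2F2 (-1.71), E2F1 (-1.08) and RBL1, which encodes p107 (-1.02), passed both thresholds, and RB1 was lower by a smaller step (-0.44, edgeR adjusted p = 0.00327). E2F1 fell short of a log2 fold change of -1 without siBAP18 replicate 2 (-0.97), and RBL1 without siCtrl replicate 2 (-0.94), siBAP18 replicate 1 (-0.95) or siBAP18 replicate 3 (-0.99). With limma on log2(RPKM + 1), E2F2, E2F1 and RBL1 were at -0.61, -0.73 and -0.55. Of 8 enzymes that set CDK phosphorylation, 4 were higher and 1 was lower, none beyond a log2 fold change of 1. Of 13 genes listed for the degradation of p21, p27 or p57 by ubiquitin ligases, 7 were lower and 2 were higher. Their median was -0.26. The 2 higher genes, named after their values were seen, were UBAC1 (0.31, edgeR adjusted p = 0.00182) and DDB1 (0.17, edgeR adjusted p = 0.0451). DTL, the receptor that hands p21 to CUL4 ligases, was the lowest at -1.06, or -0.99 without siBAP18 replicate 1 and -0.47 with limma on log2(RPKM + 1). SKP2 and CKS1B, which together recognise p27, had log2 fold changes of -0.76 (edgeR adjusted p = 6.4e-05) and -0.36 (edgeR adjusted p = 0.000882).

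Among 24 transcription factors and chromatin proteins known to act on these genes, 10 were higher and 6 were lower. Over all genes tested the shares were 24.5% higher and 25.1% lower, and the lower count was near its share. EGR1, an immediate early factor, had 18, 16 and 14 counts in siCtrl and 1580, 1490 and 1025 in siBAP18 (log2 fold change 6.33, but 3.10 with limma on log2(RPKM + 1) and 5.39 on log2(RPKM + 0.1), since siCtrl was near 0). KLF6, a Krüppel-like factor known to activate CDKN1A, rose by 2.05 on the log2 scale. The 6 lower genes ranged from -0.82 to -0.33 on the log2 scale. Named here after their values were seen, they included TP63 (-0.82), SUZ12 (-0.72) and EZH2 (-0.68). Smaller falls were those of SP3 (-0.40) and SP1 (-0.33), whose proteins bind GC boxes. The other chromatin genes of the list did not fall in this way. CBX8 was higher (0.54, edgeR adjusted p = 2.27e-06), and BMI1 (0.07), CBX7 (-0.03), MEN1 (0.10) and KMT2A (-0.16) did not pass. MYC, a repressor of CDKN1A and CDKN2B, did not pass (-0.03, edgeR adjusted p = 0.771). The median of the list was 0.09.

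**Figure D5:**
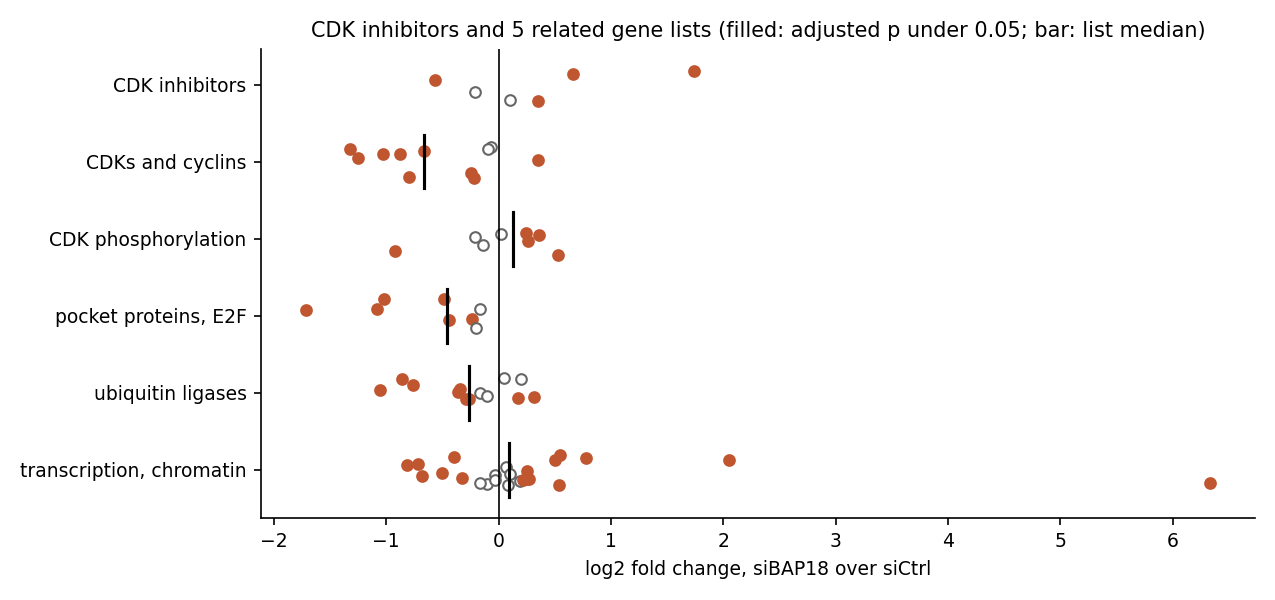
Log2 fold change of siBAP18 over siCtrl (horizontal axis) for the tested CDK inhibitors and the tested genes of 5 related lists, with filled points for an edgeR adjusted p under 0.05 and a vertical bar for each list's median. The CDKs and cyclins lie mostly to the left of 0 with a median of -0.67, and the point farthest to the right is EGR1 at 6.33 in the edgeR fit.

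The lists were chosen with earlier results of these data known, and their counts are read only beside the shares of all genes given above. Across the 14217 genes whose mean log2 CPM reached 1, the genes whose 6 library values were closest to those of each member, after subtraction of the siCtrl mean, were as follows. For CDKN1A they were DNAJB2, NEXN and PTPRH, at Euclidean distances of 0.0882, 0.133 and 0.159 on the log2 CPM scale. For CDKN1B RNASEH1 and GABPB2 were closest, at 0.0517 and 0.0525. For CDKN2D they were ZNF747, EML2-AS1 and RARA, within 0.168, and for CDKN3 they were ACSL4, ATP8B2 and NCOA2, within 0.0804.

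The 7-base word ACTCAAC, which matches guide bases 2 to 8 of 1 of the 3 BAP18 siRNAs in the study's methods, was searched in the annotated 3′UTRs of the members in GENCODE 29. No protein-coding transcript of any of the 8 genes held it. The matching words of the other siRNAs were not searched, so this says nothing about the siRNAs as a cause.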

How the data were processed

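The authors deposited a table of raw read counts per gene and a table of RPKM for the same 6 libraries. Per the labels, libraries were poly(A) selected and dUTP strand-specific. Per the submitters' processing notes the builds are GRCm38 and hg38; all 8 members overlapped their human GENCODE 29 genes. The aligner, counter and strand setting are not given in the sources used here. The deposited RPKM equal counts divided by the listed gene length and by the column total, in RPKM units.

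Counts were tested with edgeR 4.0.16 (R 4.3.3): TMM scaling, filterByExpr, the quasi-likelihood test on group alone, and Benjamini-Hochberg adjustment over all 20776 tested genes. Thresholds were an adjusted p under 0.05 and, where stated, an absolute log2 fold change over 1. Alternatives used limma 3.58.1 on log2(RPKM + 1) and log2(RPKM + 0.1), DESeq2 1.42.0, other scalings and filters, a replicate block and each library left out. The procedure was tested on simulated data. No 2 libraries of the same group agreed within sampling noise.

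Named genes were all members, C17orf49, genes overlapping a member, and tested genes near CDKN2A with at least 10 counts over the 6 libraries. They also included at most 4 called genes per list with the smallest adjusted p, a fixed set of regulators, and the 3 nearest genes per changed member. Members and lists were chosen with earlier results of these data known. Promoters are from RefSeq. Some genes, 1 gene list and 1 marker set are not reported here.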

Additional observations from a re-analysis of the deposited data

How the results depend on the processing

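Over 10 alternatives of scaling, filter, test and unit, the 4 members that differed kept their direction and call, with log2 fold changes of 1.67 to 1.75 for CDKN1A, 0.335 to 0.361 for CDKN1B, 0.466 to 0.675 for CDKN2D and -0.577 to -0.466 for CDKN3. CDKN2C (0.089 to 0.115) passed under none, nor did CDKN1C under the 8 that kept it. With each library left out in turn the ranges were 1.68 to 1.80, 0.316 to 0.39, 0.542 to 0.767 and -0.589 to -0.543 for those 4, 0.0282 to 0.166 for CDKN2C and -0.399 to 0.0159 for CDKN1C, which changed sign without siBAP18 replicate 1. Over the same omissions CDK6 ranged from -0.186 to 0.0258 and MYC from -0.0739 to 0.0249, both changing sign without siBAP18 replicate 3, and neither passed the test. CCNE1 lost its call without siCtrl replicate 1, siCtrl replicate 3 or siBAP18 replicate 1 (adjusted p = 0.0517, 0.0987 and 0.0747, edgeR), and RB1 with limma on log2(RPKM + 0.1) (adjusted p = 0.0502). With limma on log2(RPKM + 1), SKP2 was at -0.386, RB1 at -0.209, SP3 at -0.245 and FOCAD at 0.186, each at least 1.5 times smaller than with edgeR. MTAP (-0.342, edgeR adjusted p = 0.0402) and the noncoding gene overlapping it (-0.374, edgeR adjusted p = 0.0271) passed without siCtrl replicate 2, and DMRTA1 (-0.769, edgeR adjusted p = 0.0395) without siBAP18 replicate 1. Their values over all 6 omissions ran from -0.342 to -0.0939, -0.374 to -0.108 and -0.769 to -0.202, with edgeR adjusted p up to 0.655, 0.609 and 0.499.

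The 981 higher genes past both thresholds became 605 with at least 10 counts required in every library, 215 with limma on log2(RPKM + 1) and 475 with limma on log2(RPKM + 0.1), and the 777 lower genes became 133 and 434 with limma, where fewer genes are tested and the pseudocount shrinks low genes. With a library left out there were 957 to 1067 higher, 757 to 927 lower and 8967 to 10602 genes at an adjusted p under 0.05 alone. Libraries share replicate numbers, but same-numbered libraries deviated together only weakly (r = 0.0668, 0.227 and 0.107 over 14130 genes), and nothing in the labels pairs them. A replicate block raised the genes at an adjusted p under 0.05 from 10305 to 10803 and changed no member's call; 5 of 6 libraries matched best with their own number. The counts of CDKN1C, 24 to 48 per library, limit its precision.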

Other observations

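Some other genes of the CDKN2A window, listed by the naming rule, also differed at an adjusted p under 0.05, as did 49.6% of all genes tested. With so many genes changed, such differences are not in themselves a result about the window. IFNE did not pass (log2 fold change -0.57, edgeR adjusted p = 0.0603), nor did KHSRPP1 (-0.27, edgeR adjusted p = 0.535) or LINC01239 (0.07, edgeR adjusted p = 0.834). IFNA1, with few counts, did not pass either (0.345, edgeR adjusted p = 0.665). MLLT3, a super elongation complex component, was lower (log2 fold change -0.63, edgeR adjusted p = 1.63e-07), as was KLHL9, a ubiquitin ligase adaptor of mitosis (-0.40, edgeR adjusted p = 0.000541). HACD4 was lower too (-0.71, edgeR adjusted p = 0.0235), but lost its call without siCtrl replicate 1, siCtrl replicate 3 or siBAP18 replicate 2. The noncoding gene RP11-408N14.1 had 108, 99 and 98 counts in siCtrl and 41, 86 and 25 in siBAP18 (log2 fold change -1.10, edgeR adjusted p = 0.000482). FOCAD was higher by 0.28 (edgeR adjusted p = 0.00777), a call that limma on either RPKM scale did not make (adjusted p = 0.103) and that was lost without siCtrl replicate 3 or siBAP18 replicate 1.

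MIR31HG, the host gene of a microRNA, had 208, 196 and 226 counts in siCtrl and 388, 420 and 257 in siBAP18 (log2 fold change 0.68, edgeR adjusted p = 3e-05). IFNWP19, a pseudogene on the opposite strand that shares 303 exonic bases with it, had 213, 180 and 215 counts in siCtrl and 386, 392 and 257 in siBAP18. Which strand these reads came from cannot be told from the counts. The 8 CDK inhibitors share no exonic bases with another gene of the table.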
